A study of Homo sapiens with 12 samples.

Results

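The miR-99, miR-100 and miR-125 families were followed in small RNA-Seq libraries of AsPC-1 and PANC-1, established human lines of pancreatic ductal adenocarcinoma. The members were taken by name, with earlier results of these data known, as 9 of the mature miRNAs that come from 3 genomic loci in which a miR-99 or miR-100 gene, a let-7 gene and a miR-125 gene lie together. These are listed as hsa-mir-99a-5p, hsa-mir-99b-5p, hsa-mir-99b-3p, hsa-mir-100-5p, hsa-mir-125a-5p, hsa-mir-125a-3p, hsa-mir-125b-5p, hsa-mir-125b-1-3p and hsa-mir-125b-2-3p, written below in the usual form miR-100-5p, and all 9 were listed among the 1733 miRNAs with a count in the series. The study compared cells transfected with siRNA against MYEOV, a gene named for its overexpression in myeloma, with control cells of the same line. Each of the 4 groups (AsPC-1 control, AsPC-1 MYEOV knockdown, PANC-1 control, PANC-1 MYEOV knockdown) had 3 libraries, and the labels place the harvest 48 h after transfection. The controls are titled WT and described as untreated, whereas the study's methods name a negative control siRNA, so transfection itself may differ between the groups. The labels name a pair of siRNAs against MYEOV without saying which library received which. The knockdown libraries are titled with the numbers 1 to 3, taken here as replicates, but the numbers 1 and 2 may instead name the siRNA. AsPC-1 cells were grown in RPMI 1640 and PANC-1 cells in DMEM, so that cell line and medium cannot be told apart.

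Mature miRNAs guide Argonaute proteins to messenger RNAs mainly through the seed, bases 2 to 8 from the 5′ end, and members of one seed family can therefore share targets. The hairpin precursor yields a 5p and a 3p arm, of which one is usually kept far more than the other. The miR-100 lineage is among the oldest known in animals, and the miR-125 family is the vertebrate counterpart of lin-4, the first miRNA described in worms. MTOR and IGF1R are known targets of the miR-99/100 family, and LIN28 and the apoptosis gene BAK1 are known targets of the miR-125 family. LIN28 proteins in turn block the maturation of let-7, the tumour-suppressing family whose genes lie in the same loci.

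The mature sequences are shown because they decide which members can replace one another at a target and which can be told apart by sequencing. They are RefSeq sequences (GRCh38.p14), are written 5′ to 3′ and have the seed in capitals. The 5p arms of the miR-99/100 family share 1 seed and those of the miR-125 family share another, while each of the 4 3p arms has a seed of its own:
miR-100-5p: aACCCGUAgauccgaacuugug
miR-99a-5p: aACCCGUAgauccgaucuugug
miR-99b-5p: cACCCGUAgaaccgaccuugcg
miR-125a-5p: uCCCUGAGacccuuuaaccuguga
miR-125b-5p: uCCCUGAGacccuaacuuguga
miR-99b-3p: cAAGCUCGugucuguggguccg
miR-125a-3p: aCAGGUGAgguucuugggagcc
miR-125b-1-3p: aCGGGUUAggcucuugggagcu
miR-125b-2-3p: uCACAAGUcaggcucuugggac

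Counted from 1 at the 5′ end of miR-100-5p, miR-99a-5p differs from it by the single substitution A16U, and miR-99b-5p differs by A1C, U11A, A16C and U21C. The first 13 bases of miR-125a-5p and miR-125b-5p are the same. The miR-125b-5p sequence is encoded by a pair of genes, MIR125B1 and MIR125B2, and reads of this arm cannot be assigned to either. The 3p arms of the pair differ in their seeds and can be counted apart. Among other mature miRNAs, the seed AAGCUCG of miR-99b-3p is also that of miR-99a-3p, which had 0 to 2 reads per library, and the seed CCCUGAG is also that of miR-4319, which was listed in no library.

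The 3 loci were placed on GRCh37, the same assembly as the hg19 build to which the authors mapped. On chromosome 11, MIR100 (122022937 to 122023016), MIRLET7A2 (122017229 to 122017301) and MIR125B1 (121970465 to 121970552) lie on the minus strand within the lncRNA gene MIR100HG (121899033 to 122427429). They span 52552 bp, and no annotated exon of the host overlaps them. On chromosome 19, MIR99B (52195865 to 52195934), MIRLET7E (52196039 to 52196117) and MIR125A (52196507 to 52196592) lie on the plus strand within 728 bp of the protein-coding gene SPACA6 (52191599 to 52215640), and an exon of 1 SPACA6 transcript overlaps MIR125A. On chromosome 21, MIR99A (17911409 to 17911489), MIRLET7C (17912143 to 17912236) and MIR125B2 (17962557 to 17962645) lie on the plus strand within the lncRNA gene MIR99AHG (17300616 to 18018683). They span 51237 bp, and exons of 3 MIR99AHG transcripts overlap MIRLET7C and exons of 3 overlap MIR125B2. The other mature miRNAs of the loci (miR-99a-3p, miR-100-3p, let-7a-5p, let-7a-2-3p, let-7c-5p, let-7c-3p, let-7e-5p and let-7e-3p) are called locus partners here.

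AsPC-1 libraries held 5587106 to 7311783 counted reads and PANC-1 libraries 3805084 to 5049361, with 1014 to 1144 miRNAs listed per library. MYEOV mRNA is not counted in small RNA libraries, so the degree of knockdown was not measured in them. The epithelial miR-200 list (miR-141-3p, miR-200a-3p, miR-200b-3p, miR-200c-3p and miR-429) summed to 48700 to 52700 CPM (read counts scaled to the same library total) in the AsPC-1 libraries, whereas PANC-1 libraries had 212 to 276, with miR-141-3p at 0 to 3 reads in PANC-1. A muscle list (miR-1-3p and miR-133a-3p) summed to 0.684 to 1.54 CPM in the former and 127 to 177 CPM in the latter. Lists for blood cells, liver and pancreatic acini reached at most 6.44, 10.8 and 0.509 CPM in any library. Within each line the ranges of the epithelial list in control and knockdown libraries were 48700 to 52700 and 49400 to 51600 in AsPC-1, and 250 to 276 and 212 to 251 in PANC-1.

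The families were a minor part of the miRNA content of AsPC-1 and a major part of that of PANC-1. Together the 9 members took 1.18% to 1.31% of the counted reads in the 6 AsPC-1 libraries and 12.4% to 15.2% in the 6 PANC-1 libraries. miR-100-5p made up 62.9% to 68.5% of the family reads of AsPC-1 libraries and 86.2% to 88.3% of those of PANC-1 libraries. It was the second most abundant miRNA in each PANC-1 library and ranked 24 to 27 in AsPC-1. In the plot of read counts, PANC-1 libraries lie above AsPC-1 libraries for 8 of the members, and the ranges of miR-125b-2-3p overlap.

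**Figure D1:**
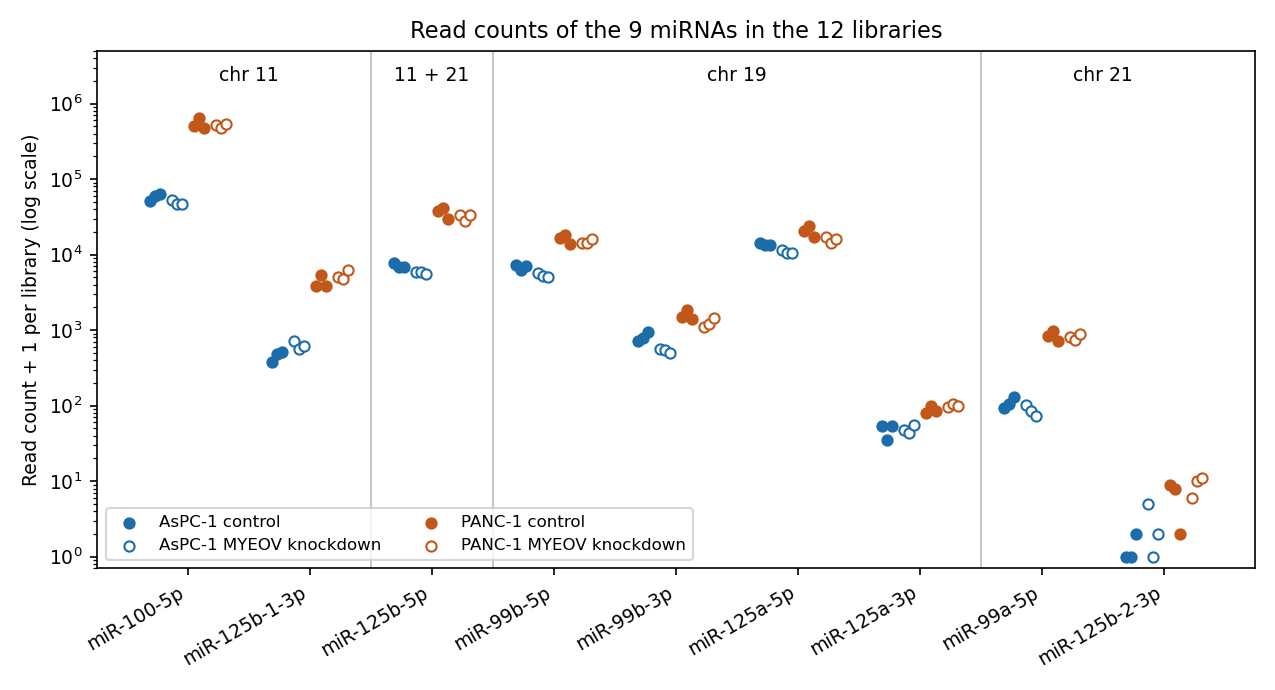
Read count plus 1 per library on a log axis for the 9 miRNAs, grouped by the chromosome of their locus; each point is 1 library, filled for control and open for MYEOV knockdown, in blue for AsPC-1 and orange for PANC-1. miR-100-5p lies highest in both lines (46227 to 62661 reads in AsPC-1, 471424 to 636818 in PANC-1) and miR-125b-2-3p lowest (0 to 4 and 1 to 10).

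Before any treatment effect, the control libraries of the lines were compared. PANC-1 libraries are set against AsPC-1 libraries with edgeR's quasi-likelihood test on the counts, scaled with TMM factors with Benjamini-Hochberg adjustment across the 627 miRNAs tested, and an adjusted p under 0.05 counts as a call. LFC denotes the log2 fold change, given with its standard error (SE). This contrast called 519 miRNAs, 82.8% of those tested, with 46.7% higher and 36.0% lower in PANC-1. All 8 members tested were higher there, without overlap of the groups, as for 82.1% of all miRNAs (46.6% higher, 35.6% lower), and their median LFC was 2.14 beside 0.27 over all miRNAs tested. miR-125b-2-3p had too few reads to pass the filter on low counts. With no filter and with all 12 libraries in 1 fit it was tested and called higher in PANC-1 (adjusted p = 0.000150 and 0.00129). In these settings 41.2% and 81.8% of all miRNAs tested were called in either direction. It had 0, 0 and 1 reads in AsPC-1 controls against 8, 7 and 1 in PANC-1 controls. The highest count of the former thus equalled the lowest of the latter. In the fit of all 12 libraries it passed the filter through PANC-1 libraries alone, so that call is no separate support for a higher level there. Each library is bulk RNA of a single line, so fewer expressing cells and a lower level per cell cannot be told apart.

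The miRNAs encoded by the chromosome 11 locus alone were over 10-fold higher in PANC-1 with TMM factors, and with upper-quartile factors their LFCs were 2.65 (miR-100-5p), 2.65 (miR-125b-1-3p), 2.60 (let-7a-2-3p) and 3.46 (miR-100-3p). miR-100-5p, the leading member of the families, had 51435, 58932 and 62661 reads in the AsPC-1 controls and 511559, 636818 and 471424 in the PANC-1 controls. The groups lay far apart, and the LFC was 3.57 (SE 0.10, adjusted p = 4.72e-14), an 11.9-fold difference. miR-125b-1-3p, the 3p arm that marks the MIR125B1 gene, had 372, 487 and 519 reads in AsPC-1 and 3836, 5294 and 3813 in PANC-1. Its LFC of 3.57 (SE 0.13, adjusted p = 1.24e-12) was as large as that of miR-100-5p. The 2 other arms that belong to this locus alone, miR-100-3p and let-7a-2-3p, were counted at low levels in both lines, with 4 to 8 and 13 to 21 reads in AsPC-1 controls and 88 to 132 and 131 to 175 in PANC-1 controls. They were 20.7-fold (LFC 4.37, SE 0.26) and 11.5-fold (LFC 3.52, SE 0.20) higher in PANC-1. miR-100-3p passed the filter on low counts through the PANC-1 controls alone, so its fold is no separate support for a higher level there.

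Ratios within a library need no scaling between libraries, so they compare members of a locus directly. For each of 10 ratios, also chosen with earlier results known, the log2 values (0.5 added to each count) were compared with a two-sided exact permutation test that kept the line or the treatment as a stratum, with 400 regroupings and a smallest possible p of 0.005. In the controls, AsPC-1 libraries had 121 to 138 reads of miR-100-5p per read of miR-125b-1-3p, and PANC-1 libraries 120 to 133.4. Over all 12 libraries the log2 ratio was 0.15 higher in PANC-1 (exact permutation p = 0.09, adjusted p = 0.15 over the 10 ratios). This mean combines -0.0074 in the controls with 0.31 in the knockdown libraries, where the lines did not overlap (exact permutation p = 0.1, the smallest that 3 against 3 can give). The ratio of let-7a-2-3p to miR-100-5p differed by -0.11 (exact permutation p = 0.39, adjusted p = 0.433), and neither ratio passed the test.

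miR-125b-5p is the arm that the chromosome 11 and chromosome 21 genes share. It had 7638, 6790 and 6854 reads in AsPC-1 controls and 38028, 41598 and 29833 in PANC-1 controls, a 6.48-fold difference (LFC 2.70, SE 0.11, adjusted p = 4.21e-12). Of the 5p reads of the miR-125 family it took 33.4% to 35.7% in the AsPC-1 libraries and 63.5% to 67.5% in those of PANC-1, so miR-125a-5p was the more abundant of the pair in each AsPC-1 library and miR-125b-5p in each PANC-1 library. The 3p arms tell the genes apart, and reads of the MIR125B1 arm were far more numerous. In AsPC-1, miR-125b-1-3p had 372 to 725 reads per library and miR-125b-2-3p 0 to 4, and in PANC-1 they had 3813 to 6296 and 1 to 10. Summed over the controls, miR-125b-2-3p was 1 of 1379 reads of the pair in AsPC-1 (0.0725%, exact 95% interval 0.00184% to 0.403%) and 16 of 12959 in PANC-1 (0.123%, 0.0706% to 0.200%). These intervals cover counting error only. The ratio of the arms kept differs between hairpins, so these shares are not the shares of the genes in miR-125b-5p.

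The chromosome 19 locus differed less between the lines. miR-99b-5p had 7313, 6329 and 7135 reads in AsPC-1 controls and 16667, 18399 and 14010 in PANC-1 controls (LFC 1.58, SE 0.10, 2.99-fold, adjusted p = 1.57e-09). miR-125a-5p had 14153, 13399 and 13372 reads against 20691, 23866 and 16867 (LFC 0.92, SE 0.09, 1.89-fold, adjusted p = 3.38e-07). The control libraries did not overlap for either miRNA. The 3p arms were 2.48-fold (miR-99b-3p, LFC 1.31, SE 0.11) and 2.38-fold (miR-125a-3p, LFC 1.25, SE 0.21) higher in PANC-1. The locus partner let-7e-5p, with 2824 to 3290 reads in AsPC-1 controls and 6789 to 8928 in PANC-1 controls, had an LFC of 1.61 (SE 0.10), close to that of miR-99b-5p.

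The size of these gaps depended on the scaling. TMM set the median LFC of all miRNAs at 0.27, and upper-quartile factors lowered the values by a median of 0.92, with 36.7% of the calls higher in PANC-1 instead of 56.5%. With total counts the values rose by a median of 0.34, and 65.8% of the calls were higher. Under upper-quartile factors miR-125a-5p was not called (LFC -0.00077, adjusted p = 0.994) and neither was miR-125a-3p (LFC 0.33, adjusted p = 0.149), while miR-100-5p kept an LFC of 2.65. The locus partner let-7c-5p turned from 0.10 to -0.83 (adjusted p = 1.57e-05), and to 0.44 with total counts (adjusted p = 0.00320). The partner let-7a-5p, which was called higher in PANC-1 with TMM (LFC 0.35, adjusted p = 0.00409), was called lower with upper-quartile factors (LFC -0.58, adjusted p = 0.000297). Ratios within each library do not depend on the scaling, and the tests of them use all 12 libraries. The ratio of miR-99b-5p to miR-125a-5p, hairpins less than 1 kb apart, was higher in PANC-1 by 0.81 on the log2 scale (exact permutation p = 0.005, adjusted p = 0.025), whereas that of let-7e-5p to miR-99b-5p differed by -0.0074 (exact permutation p = 0.925, adjusted p = 0.925). The balance of the arms of MIR99B and MIR125A also differed between the lines over all 12 libraries, although the controls alone overlapped. The 5p to 3p ratio was higher in PANC-1 by 0.27 for miR-99b (exact permutation p = 0.015, adjusted p = 0.0375), and the difference, PANC-1 minus AsPC-1, was -0.44 for miR-125a (exact permutation p = 0.01, adjusted p = 0.0333). Within the controls these differences were 0.27 (exact permutation p = 0.3) and -0.35 (exact permutation p = 0.2), and within the knockdown libraries 0.27 and -0.53, each without overlap (exact permutation p = 0.1, the smallest possible there). Leaving out 1 library ended the first of these calls in 11 of 12 runs, all but that without AsPC-1 control 1, and the latter in 8 of 12, all but those without AsPC-1 control 1 or 3, AsPC-1 knockdown 3 or PANC-1 control 1. The ratio of miR-125b-5p to miR-125b-1-3p, which was added after the values were seen and whose 5p reads may come from MIR125B2 too, differed by -0.76 (exact permutation p = 0.005, adjusted p = 0.0183 over 11 ratios).

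**Figure D2:**
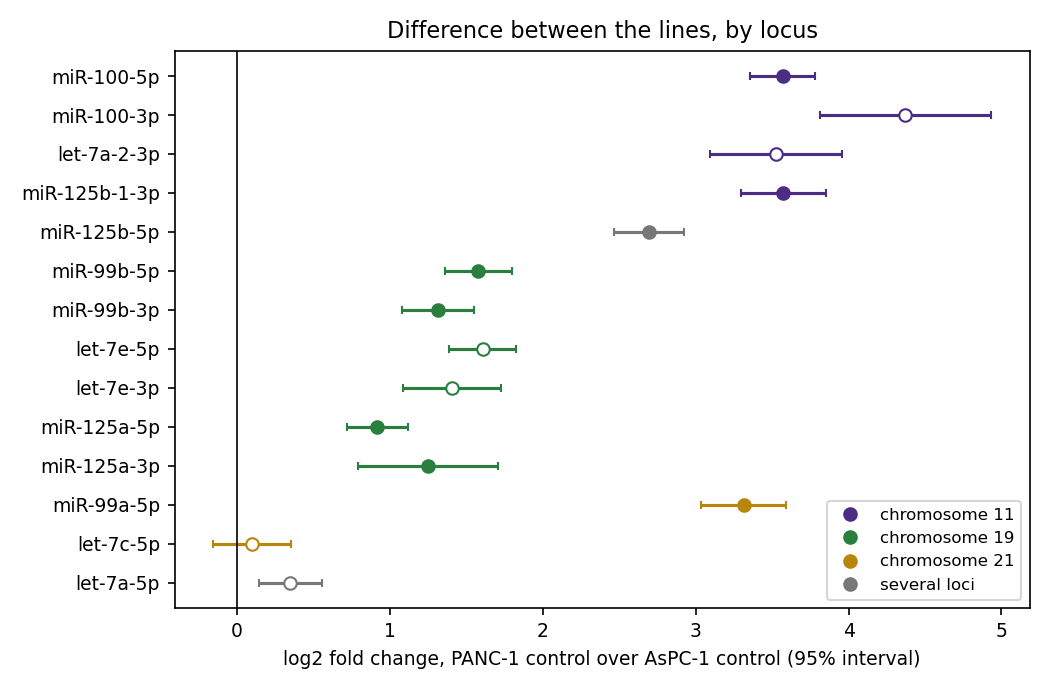
LFC of PANC-1 controls over AsPC-1 controls (3 libraries each) with 95% intervals, for members (filled) and locus partners (open), coloured by chromosome. The chromosome 11 arms lie at 3.52 to 4.37, the chromosome 19 arms at 0.92 to 1.61, and on chromosome 21 let-7c-5p at 0.10 and miR-99a-5p at 3.31.

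The chromosome 21 locus gave values that did not move together. miR-99a-5p had 92, 103 and 128 reads in AsPC-1 controls and 823, 985 and 727 in PANC-1 controls (LFC 3.31, SE 0.13, 9.94-fold, adjusted p = 3.38e-12), near the gap of miR-100-5p. Its neighbour let-7c-5p had 1464, 2094 and 2051 reads against 1653, 1748 and 1321, which overlap (LFC 0.10, 95% interval -0.15 to 0.35, adjusted p = 0.444). Within a library the ratio of let-7c-5p to miR-99a-5p differed by -3.25 on the log2 scale (PANC-1 minus AsPC-1, exact permutation p = 0.005, adjusted p = 0.025).

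The count of miR-99a-5p followed that of miR-100-5p, from which it differs at 1 base. It equalled 0.151% to 0.204% of the miR-100-5p count in the AsPC-1 libraries and 0.153% to 0.165% in those of PANC-1, although miR-100-5p itself differed 11.9-fold. The log2 ratio differed by -0.20 (PANC-1 minus AsPC-1, exact permutation p = 0.02, adjusted p = 0.04), a call that was lost on leaving out any 1 library other than AsPC-1 knockdown 3 (values of -0.25 to -0.17). The counts of miR-99a-5p are uncertain for this reason, and whether miR-100-5p reads with an error at this base are among them was not tested. let-7c-5p is likewise 1 base (A19G) from the abundant let-7a-5p and equalled 1.29% to 1.92% of it. The other arms of the locus were near 0, with 0 to 2 reads of miR-99a-3p and 0 to 5 of let-7c-3p per library. For comparison, miR-100-3p amounted to 0.00679% to 0.0263% of miR-100-5p, whereas miR-99b had 7.52 to 13.0 reads of its 5p arm per read of its 3p arm, so the count of miR-99a-3p to be set beside that of miR-99a-5p is not known.

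Within AsPC-1 controls the order of read counts was miR-100-5p, miR-125a-5p, then miR-125b-5p and miR-99b-5p, whose ranges overlapped (6790 to 7638 and 6329 to 7313), then miR-99b-3p, miR-125b-1-3p, miR-99a-5p, miR-125a-3p and miR-125b-2-3p. In PANC-1 controls miR-125b-5p came second and miR-125b-1-3p (3813 to 5294) lay above miR-99b-3p (1415 to 1857). There the ranges of miR-125a-5p (16867 to 23866) and miR-99b-5p (14010 to 18399) overlapped. Levels of different miRNAs are only roughly comparable, since adapter ligation depends on the sequence.

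For 5 of the 5p members, the miRNAs with the most similar profile were sought among 357 with at least 10 counts in each of the 12 libraries, by the root mean square difference of the centred log2 values. This is a description over libraries of which 6 are of each line, so the gap between the lines decides most of it. The 3 nearest to miR-100-5p were let-7a-2-3p of its own locus (0.18), miR-148a-3p (0.31) and miR-424-3p (0.42), and these were also the 3 nearest to miR-99a-5p (0.20, 0.29 and 0.37). miR-125b-5p was nearest to miR-503-5p (0.24), miR-92b-3p (0.24) and miR-193a-5p (0.25). miR-99b-5p was nearest to miR-365a-3p and miR-365b-3p, which have equal values (0.11), and to miR-345-5p (0.15). miR-125a-5p was nearest to miR-191-5p (0.09), miR-1301-3p (0.14) and miR-1180-3p (0.14).

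The knockdown comparison asks which members change when MYEOV is depleted. In both lines 1 member, miR-125b-1-3p, rose, and no other member passed the test in either line. In AsPC-1, 57 of 498 miRNAs tested were called (11.4%; 7.03% higher and 4.42% lower), so 1 call among the 8 members tested was close to the background. In PANC-1, 121 of 551 were called (22.0%; 12.7% higher and 9.26% lower), again with 1 of 8 members called. With edgeR, 2 of the 8 in AsPC-1 and 4 of the 8 in PANC-1 had an unadjusted p under 0.05. The share of all miRNAs at that level was not computed. The members' median LFC was -0.036 (AsPC-1) and 0.071 (PANC-1), beside -0.0047 and 0.028 over all miRNAs tested. The values by line are in the plot of knockdown effects.

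miR-125b-1-3p, the 3p arm of the MIR125B1 hairpin, stood at 55.0, 68.9 and 72.6 CPM (here scaled with TMM factors within the line) in AsPC-1 controls and at 124.96, 95.1 and 111 CPM after knockdown. The lowest knockdown library lay above the highest control, as for 16.9% of all miRNAs tested, and the LFC was 0.75 (SE 0.13, 1.69-fold, adjusted p = 0.00122). In PANC-1 it rose from 844, 994 and 986 CPM to 1330, 1267 and 1388 CPM, again without overlap (higher in this way for 19.6% of all), with an LFC of 0.50 (SE 0.09, 1.41-fold, adjusted p = 7.38e-05). The raw counts in AsPC-1 were also higher after knockdown (568 to 725 reads against 372 to 519), although the knockdown libraries there were the shallower ones. The call held in each of the 15 alternative settings run in each line, with LFCs of 0.65 to 0.86 (AsPC-1) and 0.35 to 0.54 (PANC-1). In 1 fit over all 12 libraries the LFCs were 0.65 for AsPC-1 and 0.49 for PANC-1, and their difference was 0.16 (SE 0.15, 95% interval -0.14 to 0.45, adjusted p = 0.711).

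For miR-125b-5p, which MIR125B1 and MIR125B2 both encode, and the other miRNAs tested from the chromosome 11 locus, no change passed the test. miR-125b-5p was at 1129, 961 and 959 CPM in AsPC-1 controls and at 999, 991 and 994 CPM after knockdown (LFC -0.03, 95% interval -0.21 to 0.15, adjusted p = 0.869). In PANC-1 it was at 8368, 7814 and 7718 CPM and at 8622, 7314 and 7341 CPM (LFC -0.04, 95% interval -0.22 to 0.14, adjusted p = 0.791). The knockdown libraries lay within the control range in the former line and overlapped it in the latter. miR-100-5p was at 7605, 8340 and 8763 CPM against 9179, 7738 and 8498 CPM in AsPC-1 (LFC 0.04, 95% interval -0.14 to 0.22, adjusted p = 0.814). In PANC-1 it was at 112566, 119628 and 121964 CPM against 136239, 125244 and 118830 CPM (LFC 0.10, 95% interval -0.09 to 0.29, adjusted p = 0.450). Both groups overlapped in both lines. let-7a-2-3p, between the pair on the chromosome, had LFCs of 0.16 (SE 0.32) and 0.11 (SE 0.13), and miR-100-3p, tested in PANC-1 alone, 0.16 (SE 0.15).

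**Figure D3:**
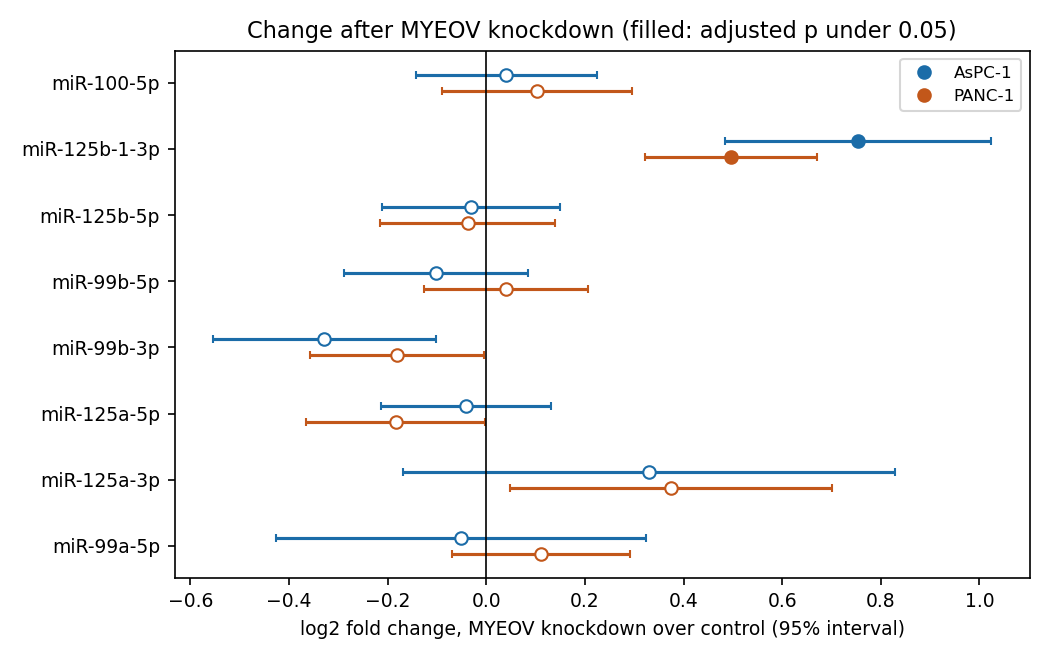
LFC after MYEOV knockdown with 95% intervals in AsPC-1 (blue) and PANC-1 (orange) for the 8 members tested, from 3 libraries per group; filled points have an adjusted p under 0.05. miR-125b-1-3p (0.75 and 0.50) has the filled points, and the other members lie between -0.33 and 0.37.

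The MIR125B1 hairpin is shown because it holds miR-125b-1-3p, whose count rose relative to that of miR-125b-5p. Since reads of miR-125b-5p come from MIR125B1 or MIR125B2, this ratio is not the balance of the arms of 1 hairpin. The RefSeq hairpin is written 5′ to 3′, with both mature arms in capitals, miR-125b-5p first:
MIR125B1: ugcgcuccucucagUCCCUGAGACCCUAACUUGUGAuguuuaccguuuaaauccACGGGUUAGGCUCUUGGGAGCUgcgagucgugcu

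miR-125b-5p was counted at 20.5, 13.9 and 13.2 reads per read of miR-125b-1-3p in AsPC-1 controls and at 7.99, 10.4 and 8.92 after knockdown. In PANC-1 the ratio was 9.91, 7.86 and 7.82 in controls and 6.48, 5.77 and 5.29 after knockdown. The groups did not overlap in either line, and AsPC-1 control 1 was the highest library (without it, the fall over both lines was -0.56). On the log2 scale the ratio fell by 0.66 over both lines, by 0.78 in AsPC-1 and by 0.54 in PANC-1 (exact permutation p = 0.005, the smallest it can give; adjusted p = 0.0183 over 11 ratios). This ratio was added after the values were seen. With libraries paired by replicate number it lost its call (exact permutation, adjusted p = 0.0859 over 11 ratios). The smallest p of that setting is too large to pass unless most ratios reach it. The ratio of miR-100-5p to miR-125b-1-3p, from the same locus, fell by 0.56 (exact permutation p = 0.005, adjusted p = 0.025), with 73.4 to 81.4 in AsPC-1 after knockdown and 85.6 to 102 in PANC-1, both below the control ranges given above. Both ratios contain the rise of miR-125b-1-3p already given and are therefore not separate evidence of it. For the second ratio, leaving out 1 library gave -0.58 to -0.52 and ended the call, with an adjusted p of 0.05, in 5 of 12 runs. These were the runs without AsPC-1 control 2, any 1 AsPC-1 knockdown library or PANC-1 knockdown 2. Over 10 ratios, the smallest possible exact permutation p passes only if other ratios also have low p-values. The loss of a call in such a run therefore depends on the other ratios too.

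The arms of MIR125A moved the same way as ratios, without a call for either arm alone. miR-125a-5p had 272, 394 and 257 reads per read of miR-125a-3p in the AsPC-1 controls and 194 to 253 after knockdown. In PANC-1 the ratio was 203 to 262 in controls and 136 to 182 after knockdown, without overlap in either line. It fell by 0.47 on the log2 scale (exact permutation p = 0.005, adjusted p = 0.025). Leaving out 1 library ended this call in 5 of 12 runs (without AsPC-1 control 2, any 1 AsPC-1 knockdown library or PANC-1 knockdown 2), with values of -0.53 to -0.38 over all 12. The limit on such runs stated above holds here too. miR-125a-3p rests on few reads, 34 to 55 per AsPC-1 library and 79 to 105 per PANC-1 library, and its own LFCs were 0.33 (SE 0.23, adjusted p = 0.398) and 0.37 (SE 0.16, adjusted p = 0.0904). Its PANC-1 knockdown libraries (21.6 to 27.6 CPM) all lay above the controls (17.4 to 21.5 CPM), as for 19.6% of all miRNAs tested there. miR-125a-5p had LFCs of -0.04 (SE 0.08, adjusted p = 0.812) and -0.18 (SE 0.09, adjusted p = 0.134). In PANC-1 it was at 4553, 4483 and 4364 CPM in controls and at 4505, 3765 and 3529 CPM after knockdown, so that knockdown 1 lay within the control range and the rest below it. Without PANC-1 knockdown 1 its LFC was -0.30 with an adjusted p of 0.0224, and with total count scaling it was -0.32 (adjusted p = 0.0212).

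For the arms of MIR99B, the ratio of 5p to 3p reads did not pass the test on knockdown. The hairpin is shown in the same form, miR-99b-5p first:
MIR99B: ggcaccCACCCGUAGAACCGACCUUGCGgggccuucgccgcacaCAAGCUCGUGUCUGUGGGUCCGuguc

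The ratio was 10.2, 8.08 and 7.52 in AsPC-1 controls and 9.70 to 10.2 after knockdown, and 9.90 to 11.04 and 11.1 to 13.0 in PANC-1. AsPC-1 control 1 was again the highest control, and it lay just above the knockdown libraries there, so the groups overlapped in AsPC-1 and not in PANC-1. The difference, knockdown minus control, of 0.22 on the log2 scale had an exact permutation p of 0.03, and an adjusted p of 0.0875 over the 10 ratios; without AsPC-1 control 1 it was 0.29 (adjusted p = 0.0167). miR-99b-3p was at 106, 111 and 132.7 CPM in AsPC-1 controls and at 97.6, 91.2 and 89.4 CPM after knockdown. The groups did not overlap, as for 30.5% of all miRNAs tested in that line (13.7% lower), and the LFC of -0.33 (SE 0.11) missed the threshold (adjusted p = 0.0586). Without AsPC-1 control 1 it was -0.39 with an adjusted p of 0.00293. In PANC-1 miR-99b-3p was at 332, 349 and 366 CPM and at 289, 317 and 317 CPM, without overlap, as for 36.7% of all miRNAs tested there, of which 17.1% of those tested lay lower (LFC -0.18, SE 0.09, adjusted p = 0.127). It was called there with total count scaling (LFC -0.32, adjusted p = 0.0109) and without PANC-1 control 1 (LFC -0.23, adjusted p = 0.0497). miR-99b-5p had LFCs of -0.10 (SE 0.09, adjusted p = 0.495) and 0.04 (SE 0.08, adjusted p = 0.773).

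**Figure D4:**
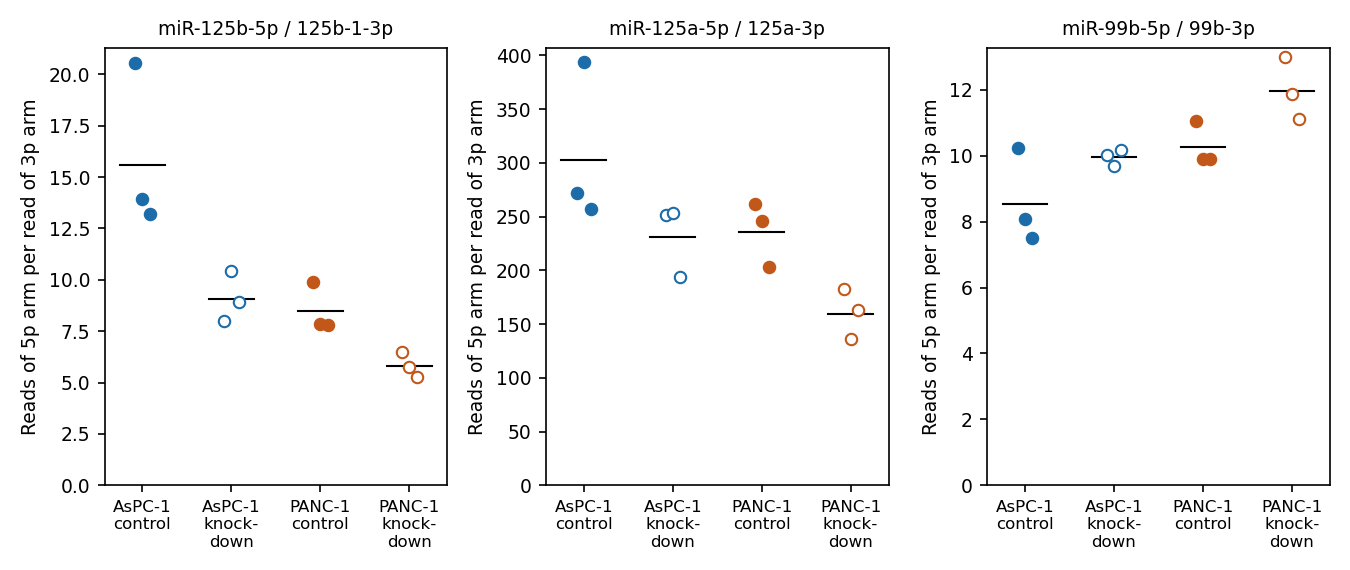
Reads of the 5p arm per read of the 3p arm in each library, for miR-125b-5p over miR-125b-1-3p, miR-125a and miR-99b; points are libraries (filled control, open knockdown), and lines are geometric means of 3. In AsPC-1 the miR-125b ratio is 13.2 to 20.5 in controls and 7.99 to 10.4 after knockdown, and the miR-99b ratio in PANC-1 is 9.90 to 11.04 in controls and 11.1 to 13.0 after knockdown.

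The chromosome 21 members gave little to compare. miR-99a-5p was at 13.6, 14.6 and 17.9 CPM in AsPC-1 controls and at 17.6, 14.1 and 12.8 CPM after knockdown (LFC -0.05, SE 0.18, adjusted p = 0.896). In PANC-1 it was at 181, 185 and 188 CPM and at 210, 192 and 196 CPM, with the knockdown libraries all above the controls, as for 19.6% of all miRNAs tested there, and an LFC of 0.11 (SE 0.09, adjusted p = 0.385) that was -0.032 with total count scaling. miR-125b-2-3p had 0, 0 and 1 reads in AsPC-1 controls, 4, 0 and 1 after knockdown, 8, 7 and 1 in PANC-1 controls and 5, 9 and 10 after knockdown. In AsPC-1 nearly all of these are at or under 3 counts, the floor used here (0.410 to 0.788 CPM). With no filter the knockdown comparison of miR-125b-2-3p had an adjusted p of 0.560 for AsPC-1 cells and 0.532 for PANC-1 cells with edgeR. With all 12 libraries in 1 fit the values were 0.346 and 0.410. The ratio of let-7c-5p to miR-99a-5p was 0.26 higher after knockdown on the log2 scale (exact permutation p = 0.035, adjusted p = 0.0875).

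Of the locus partners, let-7c-5p, a let-7 family member, rose in PANC-1. It was at 328 to 364 CPM in controls and 413 to 446 CPM after knockdown (LFC 0.32, SE 0.08, adjusted p = 0.00713). It was the 1 called of 6 partners tested there, beside 22.0% of all miRNAs tested (12.7% higher). Of the 6, 3 had an unadjusted p under 0.05 with edgeR. With total count scaling the LFC of let-7c-5p was 0.18 (adjusted p = 0.157). None of 5 passed in AsPC-1 with edgeR (1 at an unadjusted p under 0.05) or with DESeq2 (0), and let-7c-5p there had an LFC of 0.23 (SE 0.11, adjusted p = 0.202). let-7a-5p and let-7e-5p had LFCs of 0.09 (SE 0.09) and 0.10 (SE 0.08) in AsPC-1 and of 0.21 (SE 0.09) and 0.19 (SE 0.09) in PANC-1. The PANC-1 values were not called (edgeR adjusted p = 0.0887 and 0.121). With total count scaling they were 0.066 and 0.044.

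The effect of knockdown was also compared between the lines, as the interaction of line and treatment in 1 edgeR fit over the 12 libraries. It called 2 of 650 miRNAs (0.308%) and none of the 9 members tested, of which 0 had an unadjusted p under 0.05, and DESeq2 called 0. The differences, AsPC-1 minus PANC-1, lay between -0.26 for miR-99a-5p (SE 0.18) and 0.16 for miR-125b-1-3p among the 8 members with more than a few reads. The median over all 650 miRNAs was itself -0.12, and it moved to 0.039 with DESeq2 size factors and to 0.10 with total counts, where miR-99a-5p had -0.030 and miR-125b-1-3p 0.39. With TMM, the 95% intervals of the members were wide, for example -0.53 to 0.03 for miR-99b-5p. A missed threshold at 3 libraries per group does not show that the lines responded alike.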

How the data were processed

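Small RNA libraries of AsPC-1 and PANC-1 cells, 3 control and 3 MYEOV knockdown each, were grouped by their labels, all of which were used. Adapters were trimmed by the authors, who mapped reads to hg19 with Bowtie (version and miRNA annotation release not given in the sources used here), retained perfect matches of miRNA length, and deposited raw counts per mature miRNA. A count comprises the most abundant sequence near the annotated 5′ end and sequences with that same 5′ end, so other 5′ isoforms are missed. Unlisted miRNAs were set to 0. The labels and the study's methods differ in harvest time, sequencer and control.

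DE miRNAs were computed on all miRNAs with edgeR 4.0.16 in R 4.3.3 (filterByExpr, minimum count 10; TMM; quasi-likelihood F test; Benjamini-Hochberg; threshold 0.05). SE is the absolute LFC divided by the square root of F. Ratios were tested by exact permutation with numpy 2.4.6, and exact binomial intervals were computed with scipy 1.17.1. Alternatives were DESeq2 1.42.0 (size factors and Wald test), total count, upper-quartile factors, TMM without the members, other filters, 1 fit of all libraries, a replicate block, and leaving out each library. The code was tested on simulated data. The study states that its experiments were performed independently, without naming the sequencing libraries or saying that those of a group are separate cultures, and p-values measure the spread between these libraries. A floor of 3 counts was 0.410 to 0.788 CPM, and the exact binomial intervals of shares cover counting error only, whereas those of LFCs include the spread between libraries. All 9 mature sequences matched RefSeq (GRCh38.p14) and were placed on GRCh37 by exact match; host genes are from GENCODE. The members, all named whatever their result, the partners and the ratios were chosen with earlier results of these data known.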

Additional observations from a re-analysis of the deposited data

How the results depend on the processing

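The counts of members called in the knockdown comparisons changed with the scaling, and miR-125b-1-3p was called in each setting run. In AsPC-1, 2 members instead of 1 were called with total count scaling, with TMM without the members and with all 12 libraries in 1 fit; the second was miR-99b-3p (LFC -0.34, -0.35 and -0.43). Leaving out 1 library gave 1 to 2 members there and 1 to 2 in PANC-1. In PANC-1, total count scaling gave 3 members and lowered all LFCs by a median of 0.15 (143 miRNAs called, 18.2% of them higher, against 121 and 57.9%), and upper-quartile factors called 94, 69.1% higher. Under total count scaling miR-100-5p, miR-99b-5p and miR-99a-5p turned to -0.037, -0.10 and -0.032, and with upper-quartile factors miR-125b-5p turned to 0.0060. None of these 4 had been called. let-7c-5p, which had been, lost its call with total counts (LFC 0.18, adjusted p = 0.157). With all libraries in 1 fit, miR-100-5p in AsPC-1 turned to -0.062.

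Leaving out 1 library turned uncalled members near 0, with ranges of -0.025 to 0.11 (miR-100-5p), -0.076 to 0.059 (miR-125b-5p), -0.080 to 0.019 (miR-125a-5p) and -0.19 to 0.081 (miR-99a-5p) in AsPC-1, and -0.12 to 0.00098 (miR-125b-5p) in PANC-1. For the difference between lines the ranges were -0.18 to 0.032 (miR-125b-5p), -0.034 to 0.19 (miR-125a-5p), -0.38 to 0.0047 (miR-125a-3p) and -0.12 to 3.07 (miR-125b-2-3p). That difference also turned for miR-100-5p, miR-125b-5p and miR-125a-3p to 0.0037, 0.072 and 0.022 with DESeq2 size factors, to 0.066, 0.13 and 0.083 with total counts, and to 0.0037, 0.072 and 0.024 with DESeq2's Wald test. Between the lines, miR-125a-5p turned to -0.00077 with upper-quartile factors. The causes were not tested.

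The replicate block used the replicate numbers of the labels. Deviations of same-numbered libraries correlated at -0.16 to 0.13 (AsPC-1) and 0.029 to 0.14 (PANC-1), so the numbers were not taken to pair libraries. With the block 2 members were called in PANC-1 (miR-125a-5p, LFC -0.19, adjusted p = 0.0421, beside miR-125b-1-3p), and 0 ratios were called in either contrast, instead of 2 (knockdown) and 5 (lines). With 6 pairs its smallest p is too large to pass over 10 ratios unless most reach it. The added ratio of miR-125b-5p to miR-125b-1-3p, not among these 10, also lost its knockdown call with the block (exact permutation, adjusted p = 0.0859 over 11 ratios). Leaving out 1 library gave 0 to 3 ratios called on knockdown and 2 to 4 between the lines. The fall of the ratio of miR-100-5p to miR-125b-1-3p was then -0.58 to -0.52 and that of miR-125a-5p to miR-125a-3p -0.53 to -0.38, and each lost its call in 5 of 12 such runs. Both lost it without AsPC-1 control 2, any 1 AsPC-1 knockdown library or PANC-1 knockdown 2. The smallest possible p of such a run passes over 10 ratios only if other ratios also have low p-values. Between the lines, the ratios of the miR-99b arms and of miR-99a-5p to miR-100-5p lost their call in 11 of 12 runs each, all but that without AsPC-1 control 1 for the former and without AsPC-1 knockdown 3 for the latter, and that of the miR-125a arms in 8 of 12. Uncalled ratios that turned were let-7a-2-3p to miR-100-5p (-0.017 to 0.14) and miR-99a-5p to miR-100-5p (-0.076 to 0.0088) on knockdown, and let-7e-5p to miR-99b-5p between the lines (-0.064 to 0.041).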
